A study of Mus musculus with 12 samples.

Results

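The genes described here are PPAR alpha, the fatty acid receptor of hepatocytes, and 7 genes of fatty acid oxidation or fuel choice that this receptor is known to control: Ppara, Cpt1a, Acadm, Ehhadh, Acot3, Acot4, Pdk4 and Vnn1. They were taken by symbol, with each probe set that the platform annotation assigns to a single one of them, and are 8 of the 18193 genes with a probe set of their own. They have 14 probe sets, and all 14 passed the filter on low signals, as did 14102 genes in all. Liver RNA was measured on 12 single-colour oligonucleotide arrays. The YAP KO mice were YAP fl/fl females aged 8 to 12 weeks that were given AAV8-TBG-CRE, a virus that drives Cre from the hepatocyte promoter TBG, so that Yap1 in other liver cells was not targeted. WT mice carried the same floxed alleles and were given AAV8-TBG-GFP. TCPOBOP, which activates the nuclear receptor CAR, was given once by gavage at 3 mg/kg in corn oil 10 days after the virus. Day 0 mice received the virus alone. Each genotype has 2 arrays at day 0, 1 array of a pool at day 1 and 3 arrays at day 2.

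PPAR alpha is a nuclear receptor that pairs with RXR and is activated by fatty acids, above all in the fasted liver. Its targets carry fatty acids into mitochondria and peroxisomes and oxidise them there, and they turn pyruvate away from oxidation. CAR, the receptor for TCPOBOP, uses the same RXR partner and is known as an inducer of drug metabolism. The series asks what hepatocyte YAP contributes to the response to this drug.

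Promoter windows are given for the receptor, for Cpt1a, whose product lets fatty acids into mitochondria, and for the neighbouring thioesterase genes Acot4 and Acot3, since these carry most of the values described. Each is the 250 bases before a start listed by RefSeq (GRCm38.p6), 5′ to 3′ on the gene's strand. Capitals mark the nuclear receptor half-site AGGTCA, or TGACCT where it lies on the other strand. The windows are chr15:85735526-85735775 (Ppara), chr19:3323051-3323300 (Cpt1a), chr12:84038129-84038378 (Acot4) and chr12:84051894-84052143 (Acot3), all on the plus strand. Those of Ppara, Cpt1a and Acot4 lie within the annotated span of the gene, which begins further upstream.
Ppara: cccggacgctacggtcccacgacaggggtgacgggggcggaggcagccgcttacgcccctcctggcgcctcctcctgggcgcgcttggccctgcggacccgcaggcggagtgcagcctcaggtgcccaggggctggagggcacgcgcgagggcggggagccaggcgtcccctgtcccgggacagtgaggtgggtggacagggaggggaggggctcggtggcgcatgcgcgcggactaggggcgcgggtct
Cpt1a: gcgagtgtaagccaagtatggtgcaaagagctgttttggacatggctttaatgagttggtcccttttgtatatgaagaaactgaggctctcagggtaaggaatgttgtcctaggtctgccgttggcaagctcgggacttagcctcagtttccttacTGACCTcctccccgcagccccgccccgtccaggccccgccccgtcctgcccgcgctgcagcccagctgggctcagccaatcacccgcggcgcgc
Acot4: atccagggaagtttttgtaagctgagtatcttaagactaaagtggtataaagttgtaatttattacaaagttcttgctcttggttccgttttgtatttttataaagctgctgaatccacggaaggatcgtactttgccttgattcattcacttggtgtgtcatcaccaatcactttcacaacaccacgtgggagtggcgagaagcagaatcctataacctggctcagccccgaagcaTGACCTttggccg
Acot3: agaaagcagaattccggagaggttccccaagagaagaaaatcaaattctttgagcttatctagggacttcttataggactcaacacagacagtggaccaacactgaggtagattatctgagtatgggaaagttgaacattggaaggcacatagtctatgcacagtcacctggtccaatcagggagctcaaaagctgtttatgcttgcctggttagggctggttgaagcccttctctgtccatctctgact

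Windows were listed for 7 of the 8 genes. The half-site was found in 3 of them, Cpt1a, Acadm and Acot4, and in 14% of the 32851 windows of all genes. In Acot4 it begins 13 bases before the start and in Cpt1a 94 bases before it. The half-site repeated with 1 base between the copies (AGGNCANAGGNCA, the form that PPAR alpha and RXR bind) was found in none of the 7, against 0.338% of all windows. The form with 4 bases between the copies (AGGNCANNNNAGGNCA) was also found in none of them, against 0.213% of all windows. Both strands were read, and each repeat contains the letters of the half-site where its N is a T. These matches describe letters in short windows and nothing about binding.

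Signals are MAS5 intensities in arbitrary units, so the probe sets of different genes are not compared by level. A difference is on the scale of log2(intensity + 16), which understates changes of dim genes, and a gene is called at a limma adjusted p under 0.05 over all genes tested. Yap1 ranged from 449.6 to 796.7 units on the 6 KO arrays, against 999.2 to 1306.3 on the 6 WT arrays (exact permutation of genotype within days, two-sided, p = 0.00833, the smallest it can give). These are values of the brightest Yap1 probe set. Another, dimmer one overlapped between genotypes, with 57.8 to 125.7 units on KO arrays and 23.1 to 389.3 on WT arrays. Where the Yap1 probes lie relative to the deleted part is not known here. The CAR target Cyp2b10 reached 36513.9 to 40974.7 units in KO at day 2, against 1771.4 to 1866.6 in KO at day 0, and 47982.3 to 54064.3 units in WT at day 2, against 1582.7 to 1719.4 in WT at day 0. All 7 hepatocyte markers analysed passed the filter. At day 2 the signal range was narrower on the KO arrays, whose brightest probe set had 48217.1 to 67456.6 units, than on the WT arrays, with 103215.8 to 116917.6. Genes with a mean log2 signal over 14 had a median difference of -0.41 between KO and WT at day 2, and those under 8 one of 0.21. Quantile normalization, which makes the ranges equal, is given beside each call of the 8 genes that it changed. Centring each array on its median moved the median of all genes between KO and WT at day 2 to -0.083, from 0.090 as deposited. The labels do not say whether the replicates are separate animals, so the p-values measure the spread between these samples. No mice without TCPOBOP were sampled after day 0, so the drug, the gavage and time cannot be told apart. In whole liver, fewer cells of a type and less RNA per cell cannot be told apart.

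**Figure D1:**
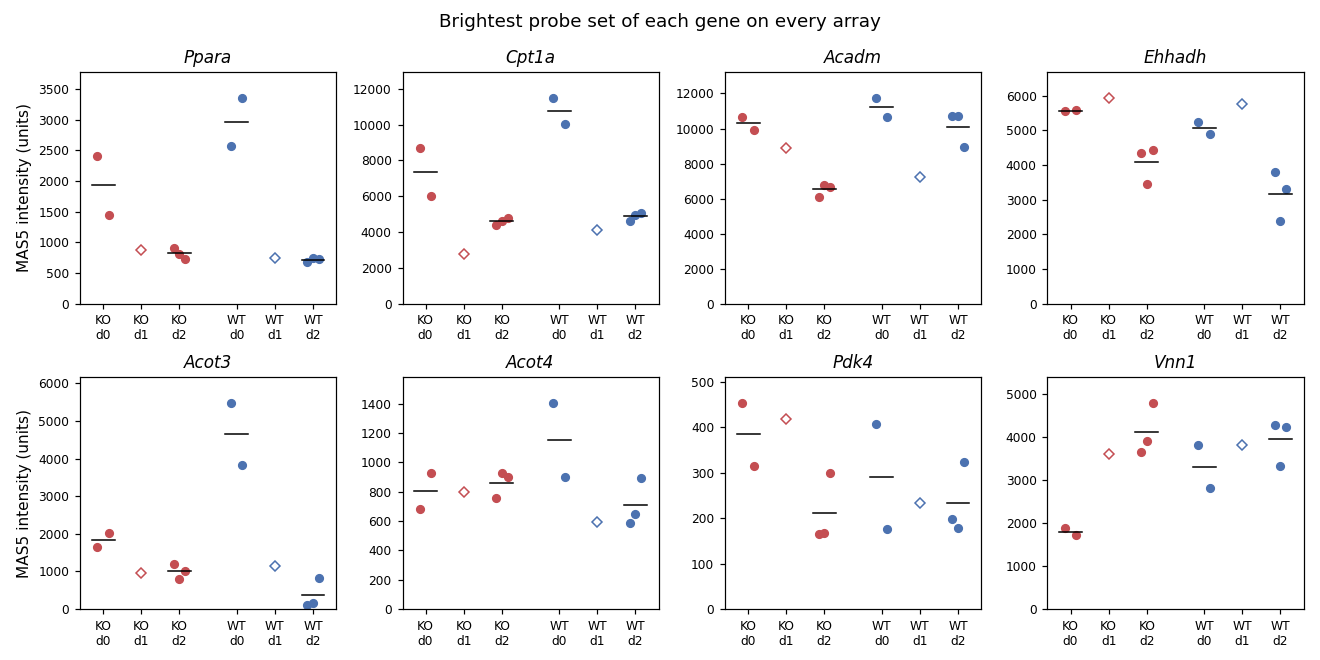
MAS5 intensity (vertical axis, arbitrary units, from 0) of the brightest probe set of each gene on each of the 12 arrays, KO on the left and WT on the right of each panel, by day. Filled circles are single arrays, open diamonds the day 1 pools and lines the means of groups with more than 1 array. Ppara lies at 735.9 to 914.1 units on KO day 2 arrays and at 673.6 to 740.6 on WT day 2 arrays, below all day 0 arrays of its genotype.

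Ppara itself fell after TCPOBOP in both genotypes. In KO livers it had 2410.7 and 1452.3 units at day 0, 884.2 in the day 1 pool and 914.1, 817.5 and 735.9 at day 2. In WT livers it had 2578.3 and 3361.9 units at day 0, 751.8 in the day 1 pool and 673.6, 740.6 and 731.8 at day 2. Every array after TCPOBOP lay below every day 0 array of either genotype. The log2 difference of day 2 from day 0 was -1.18 ± 0.21 in KO (SE, 3 and 2 arrays, 2.26-fold lower, adjusted p = 0.00415) and -2.02 ± 0.21 in WT (4.05-fold lower, adjusted p = 7.66e-05). At day 2 the genotypes overlapped, with a difference of 0.19 (95% interval -0.21 to 0.60, adjusted p = 0.518). At day 0 both KO arrays were below both WT arrays, with a log2 difference of -0.65 ± 0.23, which was not called (adjusted p = 0.463). In this probe set, the brightest of 3, the fall in KO was smaller than that in WT by 0.84 ± 0.29, also not called (adjusted p = 0.134). Without the first KO day 0 array, the difference in KO was -0.81 and the difference between the falls 1.20, which was called (adjusted p = 0.0293).

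All 3 Ppara probe sets were called lower at day 2 in both genotypes when every probe set was tested, where 7.27% of all probe sets were called in KO and 11.3% in WT. Probe set 1457721_at had 945.3, 581.3 and 894.5 units in KO at day 2, against 2408.3 and 1709.2 in KO at day 0, and 457.9, 558.9 and 792.4 units in WT at day 2, against 2520.3 and 3123.2 in WT at day 0. Day 2 and day 0 did not overlap in either genotype. The other one, 1449051_at, had 211.6, 57.2 and 78.4 units in KO at day 2, against 303.4, 337.5 and 447.6 in WT at day 2. It alone of the 3 was called between genotypes at day 2, lower in KO with a log2 difference of -1.69 ± 0.42 (adjusted p = 0.0327, with 7.86% of all probe sets called), while the other 2 were higher in KO by 0.19 and 0.42 and not called. The 3 KO values lie under the median signal of their arrays, which was 259.9 to 277 units. The direction of the difference between the changes in KO and WT also depended on the probe set. In 1449051_at the fall was larger in KO (-2.98) than in WT (-2.10), a difference of -0.88 ± 0.66 (adjusted p = 0.478). In 1457721_at the fall was smaller in KO, by 0.88 ± 0.37 (adjusted p = 0.222).

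Cpt1a encodes the liver form of carnitine palmitoyltransferase 1, the regulated step of fatty acid entry into mitochondria. It had 8680.8 and 6001.3 units in KO at day 0, 2778.8 in the day 1 pool and 4379.4, 4627.2 and 4807.3 at day 2. In WT it had 11504.6 and 10036.8 units at day 0, 4099.7 in the day 1 pool and 4629.1, 4978.2 and 5068.2 at day 2. The 2 genotypes were closest at day 2, and in each the day 1 pool was the lowest value. Cpt1a fell in both genotypes, with a log2 difference of -0.65 ± 0.15 in KO (adjusted p = 0.0214) and -1.13 ± 0.15 in WT (adjusted p = 0.000483). The call in KO was lost when the first KO day 0 array was left out (-0.38, adjusted p = 0.107), and without the first or the second KO day 2 array (adjusted p = 0.0695 and 0.0642). The changes in KO and WT differed by 0.49 ± 0.22 (adjusted p = 0.225). This difference was called at 0.84 after quantile normalization (adjusted p = 0.0408), and at 0.75 without the first KO day 0 array (adjusted p = 0.0328). At day 0 both KO arrays lay below both WT arrays, with a difference of -0.57 ± 0.17 (adjusted p = 0.326), and of -0.84 without the first KO array, which was called (adjusted p = 0.0226).

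The names of the other 2 Cpt1a probe sets carry the suffix x_at, which marks probes that may read other transcripts. Probe set 1434866_x_at had 514.7, 456.3 and 604.3 units in KO at day 2, against 236.9, 222.3 and 217.6 in WT at day 2. It was called higher in KO by 1.16 ± 0.29 on the log2 scale (adjusted p = 0.0356), where the probe set that stands for Cpt1a differed by -0.09. It fell in WT (-1.38 ± 0.33, adjusted p = 0.0187), and its difference in KO was -0.22 (adjusted p = 0.771). Its WT day 1 pool had 664.5 units, against 611.3 and 614.9 in WT at day 0, where the genotypes differed by -0.01. Probe set 1438156_x_at had 442.5 units in the WT day 1 pool, against 381.3 and 386.5 in WT at day 0. Its difference between genotypes was 0.33 at day 0 and 0.59 ± 0.29 at day 2, neither called (adjusted p = 0.875 and 0.212). The plot of all probe sets shows this disagreement.

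**Figure D2:**
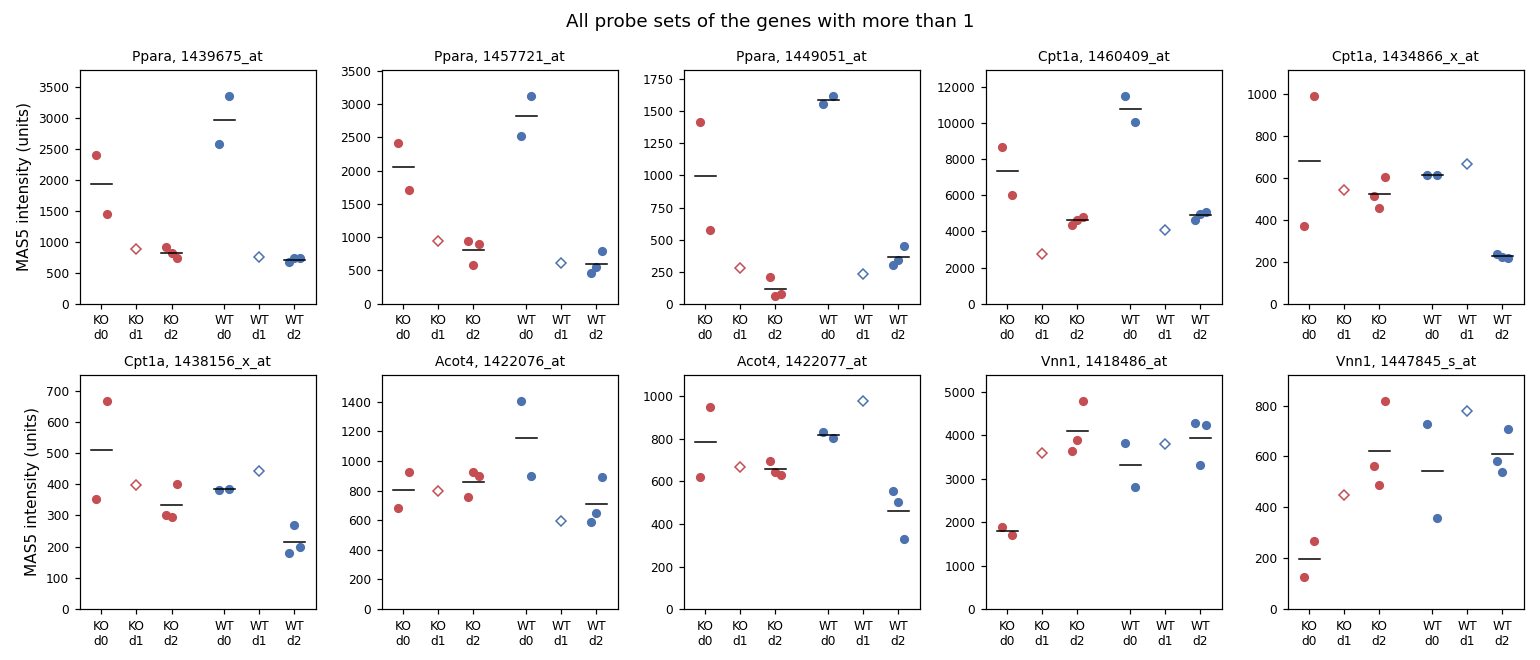
MAS5 intensity (vertical axes, arbitrary units, from 0) of all probe sets of the 4 genes that have more than 1, on each array, KO on the left and WT on the right by day. Filled circles are arrays, open diamonds day 1 pools and lines group means. The 3 Ppara probe sets are lower at day 2 than at day 0 in both genotypes, while 1434866_x_at of Cpt1a separates KO from WT at day 2 and 1460409_at does not.

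Acadm encodes medium-chain acyl-CoA dehydrogenase, which opens a round of mitochondrial beta-oxidation. In KO it had 10676.7 and 9924.4 units at day 0, 8881.4 in the day 1 pool and 6095.5, 6786.5 and 6688.2 at day 2. In WT it had 11761.2 and 10653 units at day 0, 7243.2 in the day 1 pool and 10698.2, 10686.9 and 8926.8 at day 2. The 3 KO day 2 arrays were the lowest of all 12. Acadm fell in KO by 0.66 ± 0.13 on the log2 scale (1.58-fold, adjusted p = 0.00627), and its difference in WT was -0.15 ± 0.13 (adjusted p = 0.473). At day 2 it was lower in KO than in WT (-0.63 ± 0.11, 1.54-fold, adjusted p = 0.00784). As deposited it was the only one of the 8 genes called between the genotypes, and after quantile normalization Ehhadh was instead. The mean log2 signal of Acadm was 13.12, and the 216 genes between 13 and 14 had a median of -0.28 in that comparison. After quantile normalization the difference between genotypes was -0.34 and not called (adjusted p = 0.0797), and Acadm then fell in WT too (-0.40, adjusted p = 0.0481). The changes in KO and WT differed by -0.51 ± 0.18 (adjusted p = 0.135).

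**Figure D3:**
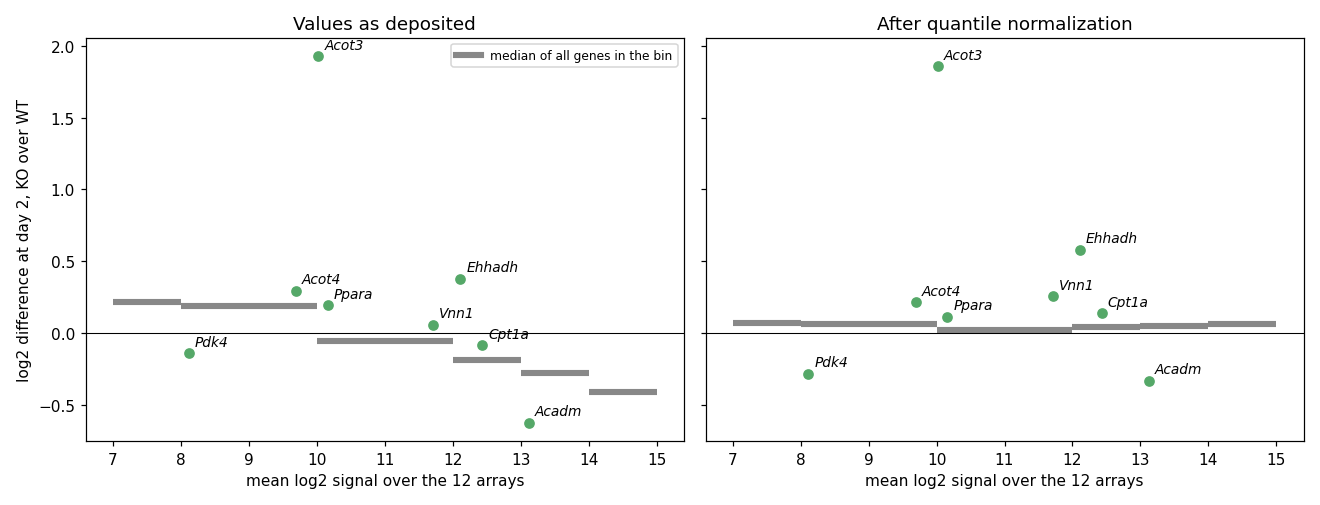
Log2 difference at day 2, KO over WT (vertical axis), against the mean log2 signal over 12 arrays (horizontal axis), for the 8 genes (points) and for all genes tested (grey bars, the median in each bin of signal, with the outer bins open-ended). Values as deposited are on the left and after quantile normalization on the right. The medians run from 0.21 to -0.41 as deposited and lie between 0.020 and 0.066 after quantile normalization, and Acadm is at -0.63 and -0.34.

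Ehhadh encodes the peroxisomal bifunctional enzyme, which catalyses the middle steps of peroxisomal beta-oxidation. In KO it had 5546 and 5596.4 units at day 0, 5945.1 in the day 1 pool and 4352.3, 3454 and 4433.7 at day 2. In WT it had 5247.2 and 4886.3 units at day 0, 5773 in the day 1 pool and 3814.8, 2400.2 and 3310.3 at day 2. The day 1 pools of both genotypes were above their day 0 arrays, and the day 2 arrays were below them. Ehhadh fell in WT by 0.70 ± 0.18 on the log2 scale (1.62-fold, adjusted p = 0.0275), and its difference in KO was -0.46 ± 0.18 (adjusted p = 0.157). The call in WT was lost without either WT day 0 array and without the second or the third WT day 2 array (adjusted p = 0.0525 to 0.162), and with each array centred on its median (adjusted p = 0.10). At day 2 Ehhadh was 0.38 ± 0.16 higher in KO than in WT and not called (adjusted p = 0.155). After quantile normalization that difference was 0.58 and called (adjusted p = 0.0441).

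Acot3 and Acot4 encode peroxisomal acyl-CoA thioesterases, Acot3 for long-chain acyl-CoA and Acot4 for succinyl-CoA. Acot4 lies at chr12:84037254-84044723 and Acot3 at chr12:84052144-84060400 (GRCm38.p6), with 7420 bases between them. Acot3 had 1645.8 and 2024.6 units in KO at day 0, 963.1 in the day 1 pool and 1198.3, 789.3 and 1022.6 at day 2. In WT it had 5483.2 and 3838.4 units at day 0, 1147.6 in the day 1 pool and 110.1, 154.2 and 833 at day 2. The WT arrays were thus the highest of all at day 0 and, for 2 of 3, the lowest of all at day 2, where those 2 lay under their arrays' medians of 231.6 and 244.5 units. Acot3 fell in WT, with a log2 difference of -4.13 ± 0.63 (17.5-fold lower, adjusted p = 0.002), the largest change among the 8 genes, and its difference in KO was -0.87 ± 0.63 (adjusted p = 0.463).

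Acot3 was called between genotypes when the third WT day 2 array was left out. With all arrays, KO exceeded WT at day 2 by 1.93 ± 0.57 (adjusted p = 0.0596), and the changes differed by 3.26 ± 0.90 (adjusted p = 0.0782). Without that array these values were 2.78 (adjusted p = 0.000529) and 4.10 (adjusted p = 0.00278), both called. At day 0, KO Acot3 was below WT (-1.32 ± 0.69), with no overlap and no call (adjusted p = 0.661). The Acot3 probe set carries the suffix s_at, which marks probes shared between transcripts, so that other thioesterase genes of the family may contribute.

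Acot4 had 679.5 and 928.8 units in KO at day 0, 798.9 in the day 1 pool and 758.6, 926 and 897.4 at day 2. In WT it had 1406.4 and 900 units at day 0, 593.6 in the day 1 pool and 585.6, 651 and 891.6 at day 2. Its log2 difference of day 2 from day 0 was 0.11 ± 0.24 in KO (adjusted p = 0.848) and -0.68 ± 0.24 in WT (adjusted p = 0.0871). In WT its second probe set, 1422077_at, was called lower (-0.84 ± 0.24, adjusted p = 0.0446), as was the mean of its probe sets (-0.76, adjusted p = 0.0181). In KO no setting called Acot4.

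Pdk4 encodes a pyruvate dehydrogenase kinase, which turns off pyruvate oxidation when fatty acids are burned. Its signal was above the median of the array on 6 of 12 arrays. It had 164.6, 168.3 and 298.5 units in KO at day 2, against 453.5 and 315.3 in KO at day 0, and 199.1, 177.2 and 323.9 units in WT at day 2, against 406.3 and 175.5 in WT at day 0. The day 1 pools had 417.2 units in KO and 232.6 in WT. The log2 differences were -0.85 ± 0.44 in KO (adjusted p = 0.289) and -0.23 ± 0.44 in WT (adjusted p = 0.778). In WT the 95% interval ran from -1.20 to 0.73, and the sign turned to 0.34 without the first WT day 0 array.

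Vnn1 encodes a pantetheinase, an enzyme that releases pantothenate, the precursor of coenzyme A. It was the only one of the 8 genes called higher at day 2 than at day 0, which was in KO. In KO it had 1889.3 and 1710.2 units at day 0, 3588.2 in the day 1 pool and 3635, 3889.9 and 4786.2 at day 2. In WT it had 3807.6 and 2805.6 units at day 0, 3802.8 in the day 1 pool and 4281.9, 3313.9 and 4226.8 at day 2. The 2 KO day 0 arrays stood below the other 10. Vnn1 rose in KO by 1.17 ± 0.18 on the log2 scale (2.26-fold, adjusted p = 0.00156), and its difference in WT was 0.26 ± 0.18 (adjusted p = 0.376). The second probe set, 1447845_s_at, also rose in KO, by 1.65 ± 0.36 (adjusted p = 0.0166, with 7.27% of all probe sets called). Its suffix s_at marks probes shared between transcripts. Its KO day 0 values, 124.3 and 267.5 units, lay under their arrays' medians of 244.7 and 269. At day 2 the genotypes differed by 0.06 (95% interval -0.29 to 0.40). At day 0, Vnn1 differed by -0.86 ± 0.19, lower in KO and not called (adjusted p = 0.154). The changes differed by 0.92 ± 0.25 (adjusted p = 0.0675), and by 1.12 after quantile normalization, which was called (adjusted p = 0.0394).

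**Figure D4:**
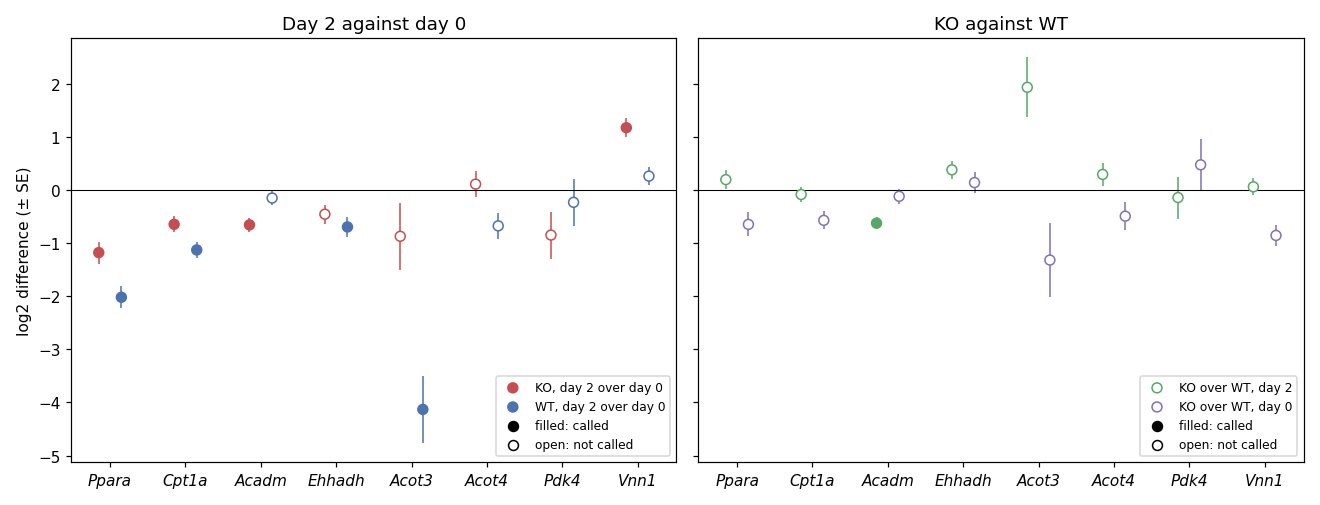
Log2 difference (vertical axis) with its SE (bars) for the 8 genes, day 2 over day 0 in KO and in WT on the left, and KO over WT at day 2 and at day 0 on the right. Filled points are called at an adjusted p under 0.05 over all genes. Acot3 in WT lies lowest at -4.13, Vnn1 in KO is the only called rise at 1.17, and Acadm is the only gene called between genotypes with values as deposited, at -0.63 (-0.34 and not called after quantile normalization).

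Of the 8 genes, 4 were called in KO between day 2 and day 0, with Vnn1 higher and Ppara, Cpt1a and Acadm lower, where 8.69% of all genes were called, 4.20% higher and 4.49% lower. In WT 4 were called, Ppara, Cpt1a, Ehhadh and Acot3, all lower, where 12.6% of all genes were called and 5.38% were called lower. The median difference of the 8 was -0.65 in KO, against 0.052 for all genes, and -0.69 in WT, against -0.11 for all genes. Day 2 and day 0 arrays did not overlap for 7 of the 8 in KO and 5 in WT, where 40.4% and 45.1% of all genes were so separated. Between KO and WT at day 2, 1 of the 8, Acadm, was called and did not overlap, where 9.22% of all genes were called, 5.23% were called lower and 36.2% did not overlap. At day 0 none was called by limma, where 0.170% of all genes were, and 3 had an unadjusted p under 0.05, Ppara, Cpt1a and Vnn1, each lower in KO, where 8.16% of all genes had one. The median of the 8 at day 0 was -0.53, against -0.027 for all genes, and 5 of 8 did not overlap, against 35.6% of all genes. In the difference between the changes none was called by limma (3.15% of all genes), and 6 had an unadjusted p under 0.05, where 21.0% of all genes had one. The comparisons share arrays: the KO and WT changes with the comparisons between genotypes at each day, and all of them with the difference. The 8 genes were chosen with earlier results of these data known, so the shares of all genes beside them are no test of the set.

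In the day 1 pools, with 1 array a genotype and no test, the log2 difference of Ppara from its day 0 mean was -1.07 in KO and -1.95 in WT. It was -1.37 in KO and -1.39 in WT for the brightest Cpt1a probe set, and -0.91 in KO and -1.98 in WT for Acot3. For Vnn1 it was 0.99 in KO and 0.22 in WT. In the x_at probe sets of Cpt1a the WT day 1 pool lay above the WT day 0 arrays. In KO 12.8% of all genes, and in WT 13.3%, lay at least 1 away. Over the 12 arrays, which share their groups, Ppara and Cpt1a had a Pearson correlation of 0.867 in log2 signal, and Ppara and Vnn1 one of -0.59. The genes most like Ppara were Cyp4v3 (0.976), Khnyn (0.975), F5 (0.973), Mblac2 (0.963) and 0610030E20Rik (0.948).

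The rest of the mitochondrial pathway fell in part in both genotypes. For this and the following lists, 8.69% of all genes were called in KO between day 2 and day 0, and 12.6% in WT. Of 17 other genes of mitochondrial fatty acid oxidation, 8 fell and 1 rose in KO, with a median of -0.51, and 4 fell and 1 rose in WT, with a median of -0.32. The largest falls in KO were Hadh (-0.88 ± 0.13), which oxidises hydroxyacyl-CoA, the carnitine carrier Slc25a20 (-0.85 ± 0.21), and Etfa (-0.84 ± 0.12) and Etfdh (-0.83 ± 0.17), which pass on the electrons of the dehydrogenases. In WT they were Etfdh (-1.16 ± 0.17), the thiolase Acaa2 (-0.93 ± 0.17) and Hadh (-0.90 ± 0.13). Etfb, the partner subunit of Etfa, was the called rise in each, by 0.56 ± 0.16 in KO (adjusted p = 0.0497, a value named after it was seen, and not called at 0.49 with median centring, adjusted p = 0.147) and by 1.06 ± 0.16 in WT. After quantile normalization 7 fell in KO, with a median of -0.36, and 10 in WT, with a median of -0.47, so that the order of the medians turned. The fall of Slc25a20 in KO was not called without the second KO day 0 array or without the first or second KO day 2 array (adjusted p = 0.0645 to 0.14), nor with the mean of its probe sets (-0.51, adjusted p = 0.0557). At day 2, Slc25a20 (-0.68) and Etfa (-0.56) were called lower in KO than in WT, whereas after quantile normalization none was called lower and 2 were called higher. These day 2 calls were also lost without single arrays, that of Slc25a20 without any KO array or without the second or the third WT array (adjusted p = 0.0745 to 0.134) and that of Etfa without the second KO array (0.065).

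Of 15 other peroxisomal genes, 5 fell in KO, with a median of -0.35, and 3 in WT, with a median of -0.29, and none rose. Crot, which makes carnitine esters of shortened fatty acids, fell in both (-1.15 ± 0.14 in KO and -1.33 ± 0.14 in WT), and was the only one called at day 2, higher in KO by 0.61 ± 0.13, a call lost without the second KO day 2 array (adjusted p = 0.0749) and with median centring (0.0759). With the mean of its probe sets Crot was called neither in KO (-0.51, adjusted p = 0.0739) nor at day 2 (0.34, adjusted p = 0.153). Hacl1 (-1.17), Phyh (-0.98) and Ech1 (-0.90) also fell in KO, Ech1 not without the first KO day 0 array (adjusted p = 0.0544). In WT the largest fall was that of Abcd2, a transporter of very long-chain acyl-CoA, at -1.97 ± 0.30. Phyh also fell in WT (-0.43, adjusted p = 0.0433), a call lost in 10 of 17 alternatives. After quantile normalization 5 fell in KO and 7 in WT.

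Of 14 other PPAR alpha target genes, 7 fell in KO, with a median of -0.71, and 4 fell and 1 rose in WT, with a median of -0.18. Cyp4a14, a fatty acid hydroxylase widely used as a readout of PPAR alpha in mice, had 950.5, 1315.1 and 2268.1 units in KO at day 2, against 9161.5 and 7401.6 in KO at day 0, and 938, 721.4 and 1302.4 units in WT at day 2, against 12244.3 and 6561.8 in WT at day 0. It fell in both, by a log2 difference of -2.53 ± 0.36 in KO (adjusted p = 0.00113) and -3.20 ± 0.36 in WT (adjusted p = 0.000143). Retsat, a retinol saturase, also fell in both (-2.04 ± 0.24 in KO and -2.34 ± 0.24 in WT). In KO the fatty acid uptake receptor Cd36 (-1.50) and the lipid droplet protein Plin5 (-1.26) also fell, and in WT G0s2 (-1.39), an inhibitor of triglyceride lipolysis. Cd36 was not called without the second KO day 0 array (adjusted p = 0.0811), nor G0s2 in WT without the first WT day 0 array (0.181) or the third WT day 2 array (0.0507). Fads2 also fell in WT (-0.88, adjusted p = 0.0117), a call lost in 2 of 17 alternatives. Aldh3a2 was the called rise in WT (0.75). At day 2, 9.22% of all genes were called between genotypes. Aldh3a2 (-0.56, adjusted p = 0.0339) and Fabp1 (-0.44, adjusted p = 0.0322) were then called lower in KO than in WT. Of 18 alternatives, the Aldh3a2 call was lost in 10 and the Fabp1 call in 7, and the sign of Fabp1 turned in 2. After quantile normalization 5 fell and 1 rose in KO.

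**Figure D5:**
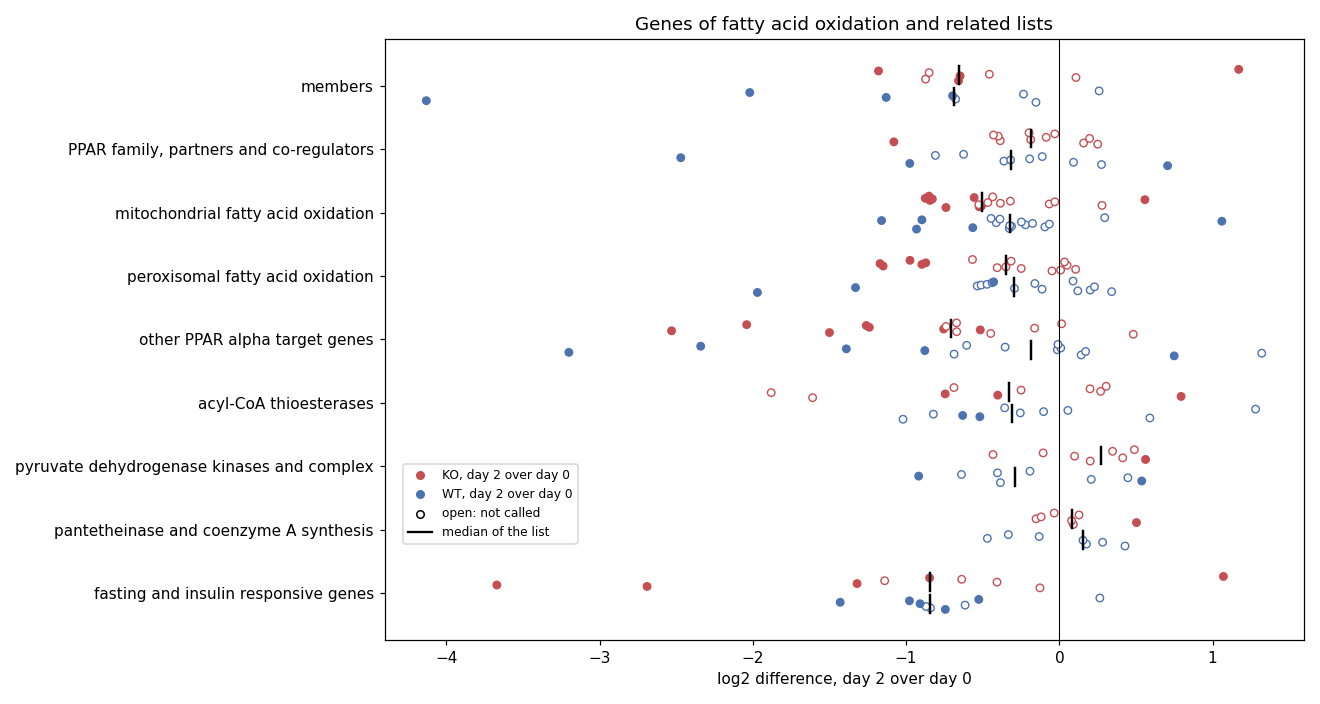
Log2 difference of day 2 from day 0 (horizontal axis) for each gene tested of 9 lists, KO above WT in each row. Filled points are called, open points are not, and vertical bars are list medians. Among other PPAR alpha targets the medians are -0.71 in KO and -0.18 in WT, and Cyp4a14 is the lowest point in each.

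Of 11 other PPAR family members, partners and co-regulators, the co-activator Lpin1 was the only call in KO as deposited (-1.08 ± 0.27). That is near the 8.69% of all genes called in KO. After quantile normalization Creb3l3 also rose in KO (0.44, adjusted p = 0.0261). In WT the co-activator Ppargc1b fell (-2.47 ± 0.48), as did Lpin1 (-0.98 ± 0.27), and the transcription factor Creb3l3 rose by 0.71 ± 0.15. The call of Lpin1 in WT was lost after quantile normalization (adjusted p = 0.0541). Ppard and Pparg were below the filter. Of 10 other acyl-CoA thioesterases, Acot13 (-0.75 in KO and -0.63 in WT) and Acot12 (-0.40 in KO and -0.52 in WT) fell in both genotypes, and Acot11 rose in KO by 0.79. The call of Acot12 in KO was lost after quantile normalization (adjusted p = 0.0744), and Acot9 was then called higher in WT (1.40, adjusted p = 0.0437). Of 8 other genes of the pyruvate dehydrogenase complex and its regulators, Pdha1 rose by 0.56 in KO and 0.54 in WT, and the kinase Pdk1 fell in WT (-0.92). After quantile normalization Pdhb also rose in KO (0.56, adjusted p = 0.0314). Of 7 other genes of pantetheine and coenzyme A metabolism, Pank1 alone was called, higher in KO by 0.50. None of the 3 genes that set malonyl-CoA, the inhibitor of CPT1, was called in KO or WT by limma. Acat1, the mitochondrial acetyl-CoA thiolase of ketone body synthesis, fell in both (-1.61 ± 0.14 in KO and -1.20 ± 0.14 in WT), and Bdh1, the other gene tested there, was not called as deposited but fell in WT after quantile normalization (-0.69, adjusted p = 0.00693). At day 2 Acat1 was called lower in KO than in WT (-0.48, adjusted p = 0.0337). That call was lost in 8 of 18 alternatives, quantile normalization among them. Acot9, Pdhb and Bdh1 are named after their values were seen. Several calls were lost without any one of 3 or more single arrays. The adjusted p without these arrays was 0.0811 to 0.205 for Lpin1 in KO and 0.0798 to 0.312 in WT. It was 0.051 to 0.155 for Acot11, 0.0696 to 0.16 for Acot12 and 0.0629 to 0.134 for Pank1, all in KO. For Pdha1 it was 0.0759 to 0.103 in KO and 0.0562 to 0.142 in WT. Acot13 in WT was not called without the second WT day 0 array (0.142), nor Acot12 in WT without the first or the second WT day 0 array (0.0888 and 0.0519) or with median centring (0.0788). Counting every alternative, of 17 for each gene, the call was lost in 6 for Lpin1 in either genotype, in 9 for Acot11, 13 for Acot12 and 11 for Pank1 in KO, and in 7 for Pdha1 in either genotype. Ppargc1b and Pdk1 in WT lost their calls without the second WT day 0 array (adjusted p = 0.0817 and 0.0588), and Creb3l3 without either WT day 0 array (0.0713 and 0.0523).

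Of 9 genes that follow feeding and insulin, 2 were called between genotypes before TCPOBOP. Of the 9, 4 fell and 1 rose in KO between day 2 and day 0, and 5 fell in WT. The largest differences in KO were those of Igfbp1 (-3.67), G6pc (-2.69), Irs2 (-1.32) and Trib3 (1.07). In WT they were those of Pck1 (-1.43), Srebf1 (-0.98), Klf15 (-0.91) and Foxo1 (-0.74). Of 17 alternatives, the call was lost in 1 for Irs2, 3 for Pck1 and Foxo1, and 2 for Srebf1 and Klf15. At day 0 Igfbp1, an insulin-repressed binding protein of growth factors, had 18267.9 and 8792.6 units in KO, against 1188.4 and 2554.9 in WT (2.85 ± 0.38, adjusted p = 0.0196). G6pc, the last enzyme of glucose release, had 16744.4 and 19908.1 units in KO, against 3281.2 and 2979.2 in WT (2.54 ± 0.33, adjusted p = 0.0196). These are 2 of the 24 genes called at day 0. Without the first WT day 0 array neither was called (adjusted p = 0.091 for Igfbp1 and 0.0647 for G6pc), and G6pc was also not called without the second WT or the second KO day 0 array (0.125 and 0.0577). Of 16 alternatives, the day 0 call was lost in 4 for Igfbp1 and 5 for G6pc. At day 2, Pck1 (1.12, adjusted p = 0.0429) and Foxo1 (0.605, adjusted p = 0.0366) were called higher in KO than in WT. Of 18 alternatives, these day 2 calls were lost in 8 for Pck1 and 10 for Foxo1. The labels give no feeding times.

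Other cell types were read through marker lists. Of 4 adipocyte markers with a probe set, Adipoq and Lep were below the filter, and the summed signal was 1844 to 1998 units in KO at day 2, against 833.2 to 1219 in WT at day 2. Of 6 skeletal muscle markers 4 were below the filter, and the sum was 557 to 786.3 units in KO at day 2, against 850.9 to 994.1 in WT at day 2. The 7 hepatocyte markers summed to 208800 to 261600 units in KO at day 2, against 322000 to 391600 in KO at day 0, and to 344000 to 390300 in WT at day 2, against 280600 to 292700 in WT at day 0. Alb, Apoa1 and Ttr, the brightest, changed in KO by -0.85, -0.84 and -0.72, and by -0.09, -0.08 and 0.03 after quantile normalization. Cps1 was called lower in KO both ways (-0.77 and -0.33). Hnf4a (-0.006), Tdo2 (0.08) and Apob (-0.26) were not called in KO as deposited. In WT Alb (0.70) and Apoa1 (0.54) were called higher as deposited, but not after quantile normalization (0.12 and 0.009). The 8 Kupffer cell markers summed to 8778 to 12360 units in KO at day 2, against 11390 to 11510 in KO at day 0, and to 11820 to 12260 in WT at day 2, against 13370 to 14130 in WT at day 0. The 8 endothelial markers summed to 9460 to 11340 units in KO at day 2, against 9785 to 12420 in KO at day 0, and to 8475 to 9473 in WT at day 2, against 10720 to 11180 in WT at day 0. The 8 stellate cell markers, 1 of them below the filter, summed to 8920 to 9861 units in KO at day 2, against 11240 to 16090 in KO at day 0, and to 8175 to 8816 in WT at day 2, against 11060 to 11880 in WT at day 0. Stellate sums were thus lower at day 2 without overlap in both genotypes, and Kupffer and endothelial sums in WT. Hepatocyte, adipocyte and cholangiocyte sums also did not overlap between the days in either genotype, but moved in opposite directions in KO and WT. Hepatocyte and cholangiocyte sums were lower at day 2 in KO and higher in WT. Adipocyte sums were higher at day 2 in KO (1368 to 1692 at day 0) and lower in WT (1606 to 1841 at day 0). Cholangiocyte sums were 1013 to 1590 units in KO at day 2, against 1675 to 1731 in KO at day 0. In WT they were 1339 to 1585 units at day 2, against 1130 to 1330 at day 0. The 6 lymphocyte markers summed to 3571 to 4440 units in KO at day 2, against 2699 to 3398 in KO at day 0. In WT they overlapped, with 2744 to 3826 units at day 2 and 3086 to 3311 at day 0. Among them Cd8a alone was called in KO, higher by 0.80. Cd3g and Ptprc were positive there, and Cd3e, Cd79a and Nkg7 negative, none of these called. Single markers varied. No Kupffer marker was called in WT, while Clec4f was called lower in KO (-0.95), and lower in KO than in WT at day 2 (-0.74). Of the endothelial markers, Oit3 was called lower in KO (-2.43), and Cdh5 (-0.66) and Clec4g (-0.95) in WT. Clec4g (0.61) and the adipocyte markers Retn (0.77) and Fabp4 (1.19) were called higher in KO than in WT at day 2. Of the stellate markers in WT, Lrat (-2.13) and Reln (-0.60) were called lower. Of the stellate markers in KO, Reln and Dcn were called lower. Col1a1 (0.71) and Des (0.70) were positive there, and Lrat, Col3a1 and Rgs5 negative, none called. Of 5 cholangiocyte markers 3 were below the filter, Krt7 and Krt19 among them. The part of these markers in the results was not tested.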

How the data were processed

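Liver RNA on 12 single-colour Affymetrix arrays was analysed from the deposited series table. The deposited intensities come from MAS5, as the submitters' processing notes say without a version, and each array has a trimmed mean of 500 units (percentiles 2 to 98). An aligner and a genome build do not apply to the arrays. Their number limits the precision.

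Intensities were used as deposited, as log2(intensity + 16). Of the probe sets, 34945 name 1 gene and only these were used. Probe sets had to exceed the median of their array on at least 2 arrays, and the one with the highest mean log2 value then stood for its gene. All 12 arrays entered 1 fit of 6 group means with limma 3.58.1 in R 4.3.3 (trended and robust eBayes, with 6 residual degrees of freedom), two-sided, with Benjamini-Hochberg adjustment over 14102 genes. A test of every probe set covered 23038. Promoter windows and gene positions are RefSeq's (GRCm38.p6). Python 3.11.15 drew the figures.

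Beside the 8 genes, up to 4 called genes a list and comparison, those with the largest differences, are named. The members and lists were chosen with earlier results of these data known. Alternatives covered normalization, pseudocount, filter, probe set choice, the test's settings, the replicate number as a block and leaving out each array. List genes without a probe set of their own are not analysed here.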

Additional observations from a re-analysis of the deposited data

Results flagged for a closer look

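The difference between the change in KO and the change in WT, day 2 over day 0, was called for 7 genes of the lists and for none of the 8 genes described. Igfbp1 fell by 3.67 on the log2 scale in KO and its difference in WT was -0.87, so that the changes differed by -2.80 ± 0.50 (limma, adjusted p = 0.0187). That call was lost without the first WT day 0 array (-2.26, adjusted p = 0.0623) and without trend and robust (0.0706). G6pc fell by 2.69 in KO and its difference in WT was -0.84, a difference of -1.85 ± 0.43 (adjusted p = 0.0418). Both started higher in KO at day 0. For Abcd2 the value was 1.92 ± 0.43 (adjusted p = 0.0374), from -0.05 in KO and -1.97 in WT. It had 989.9, 1261.8 and 532.2 units in KO at day 2, against 449.2, 347.1 and 569.1 in WT at day 2. For Fabp4, a fatty acid carrier of adipocytes, the value was 1.59 ± 0.30 (adjusted p = 0.0217). The Fabp4 call was lost without either WT day 0 array (adjusted p = 0.0801 and 0.0823), without the second KO day 2 array (0.0606) and with the mean of its probe sets (1.04, adjusted p = 0.264). The Abcd2 call was lost in 15 of 22 alternatives, among them quantile normalization (adjusted p = 0.0643), the mean of its probe sets (0.72, adjusted p = 0.368) and leaving out any array other than the third day 2 array of either genotype (adjusted p = 0.0607 to 0.114). The G6pc call was lost in 14 of 22, among them quantile normalization (adjusted p = 0.0683) and leaving out any array other than the second WT day 2 array (0.0581 to 0.14).

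Among hepatocyte markers the changes differed by -1.54 for Alb, -1.37 for Apoa1 and -0.94 for Ttr. Their mean log2 signals were 16.12, 16.11 and 15.99. After quantile normalization the values were -0.21, -0.086 and 0.26, and none was called, while Tdo2 then was (0.93, adjusted p = 0.0169). After cyclic loess the values were -0.65 for Alb and -0.48 for Apoa1, both called (adjusted p = 0.0317 and 0.0371), and -0.064 for Ttr, not called (0.835). Without single arrays Apoa1 lost its call once, without the second WT day 0 array (adjusted p = 0.0519). Ttr lost its own without either WT day 0 array, the first or the third WT day 2 array, or the first or the second KO day 2 array (0.0509 to 0.09).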

How the results depend on the processing

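Of 720 values of the 8 genes under alternatives, 678 kept direction and side of the threshold, and of 1111 values of the other named genes 890 did and 218 lost the call. The number of the 8 called in the difference between changes was 0, against 2 after quantile normalization, 2 after cyclic loess, 1 with the replicate block and 0 to 2 when 1 array was left out. Between KO and WT at day 2 it was 1, against 2 with the block and 1 to 2 without an array, and at day 0 it was 0 to 1 without an array. Over all genes, the difference had 444 calls, against 287 with quantile normalization, 275 with no filter, 76 without trend and robust, 286 with the block and 57 to 698 without an array. KO against WT at day 2 had 1300, against 748 without trend and robust and 408 to 979 without an array. At day 0 it had 24, against 9 with no filter, 0 without trend and robust, 0 with only the arrays compared, 8 with the block and 7 to 134 without an array. KO day 2 over day 0 had 1225, against 801 with only the arrays compared and 777 to 1253 without an array, and WT had 1782, against 880 to 1458. Leaving out an array leaves fewer samples, and a day 0 array left alone was taken to vary as the rest do. The cause of the other changes was not tested.

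Signs turned between KO and WT at day 2 for Cpt1a (0.14 with quantile normalization, 0.15 with cyclic loess and 0.55 with the mean of probe sets), Fabp1 (0.18 and 0.14 with quantile and loess), Ppara (-0.36 with the mean of probe sets), Vnn1 (-0.12 with median centring, -0.062 and -0.058 without an array) and Pdk4 (-0.41 to 0.10 without an array). They also turned for Ttr in the difference between changes (0.26 with quantile normalization), for Acot4 in KO (-0.057 with the mean of probe sets, -0.11 to 0.33 without an array), and for Pdk4 in WT (-0.81 to 0.34) and at day 0 (-0.099 to 1.04) without an array. The fall of Cpt1a in KO was also not called with the mean of probe sets, without trend and robust, and with only the arrays compared (adjusted p = 0.145, 0.0752 and 0.0833). That of Ehhadh in WT was not called without trend and robust (adjusted p = 0.0809). The difference of Acot3 in WT ranged from -4.97 to -3.60 over all alternatives.

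The labels do not say whether replicate numbers pair the samples. Deviations of same-numbered samples correlated by at most 0.0345, which cannot settle this with 2 or 3 arrays in a group. With the replicate number as a block, Acot3 was called between KO and WT at day 2 (1.93, adjusted p = 0.0304) and in the difference between changes (3.26, adjusted p = 0.047).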
